A study of Drosophila melanogaster with 6 samples.

Results

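Neurotransmitter identity genes are the synthesis and transport genes that decide which transmitter a neuron releases. The set examined here held 10 genes, taken by their FlyBase symbols: ChAT and VAChT for acetylcholine, VGlut for glutamate, Gad1 and VGAT for GABA, Hdc for histamine, and ple, Vmat, DAT and SerT for the monoamines. Of these 10 genes, 9 were counted among the 17489 genes of the tables, and VAChT was not analysed here. The libraries came from heads of male Drosophila melanogaster labelled as Gr5a sensory neurons, the sugar-sensing taste neurons, with the genotype Gr5a:Pclc429>UAS-Rpl3-3XFLAG. All flies of both groups thus carried the c429 mutation in Pcl (Polycomb-like, an accessory factor of Polycomb Repressive Complex 2) and a FLAG-tagged ribosomal protein under the control of Gr5a-GAL4. The sugar diet group ate 30% sucrose and the control diet group 5% sucrose, each for 7 days, from day 5 to day 12, with 3 biological replicates of 300 pooled heads per diet.

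A neuron needs an enzyme that makes its transmitter, a transporter that loads it into synaptic vesicles and, for some transmitters, a transporter in the plasma membrane that takes it back up. Expression of these few genes is therefore the usual way to classify a neuron as cholinergic, glutamatergic, GABAergic, histaminergic or monoaminergic. In Drosophila, gustatory receptor neurons are cholinergic, photoreceptors release histamine, motor neurons release glutamate, and most fast excitation in the brain uses acetylcholine.

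The libraries held between 12617127 and 24076315 sense-strand counts. The labels do not state for each library which part of the lysate was sequenced, the RNA recovered with the anti-FLAG beads or the input, and no wild-type library was used here. Per the study's methods, its Polycomb mutants came from a different background and had been outcrossed to the w1118CS strain. Pcl itself had between 850.3 and 994.7 normalized counts in sugar diet libraries, against 887.4 to 1008.6 in control diet libraries, and as both groups carry the mutation this does not check the labels. The markers of the labelled cells were near the floor: Gr5a had 2, 4 and 10 counts in sugar diet libraries and 6, 0 and 10 in control diet libraries, and 4 sweet receptor genes together summed to at most 41.7 normalized counts in sugar diet libraries and up to 43.3 in control diet libraries. Photoreceptor genes were abundant, led by the rhodopsin gene ninaE, and their 12 markers summed to between 569195 and 712915 in sugar diet libraries and 711470 to 826206 in control diet libraries. Markers of organs outside the head rose on the sugar diet, with 8 of 9 testis genes (sums of 1521 to 4530 against 45.4 to 60.0), 6 of 6 accessory gland genes (805.3 to 2431 against 4.54 to 28.9) and 7 of 8 midgut genes (1474 to 4023 against 128.0 to 652.3) higher at q under 0.1, a threshold that 14.5% of all genes tested passed in either direction. The yolk protein gene Yp1, which is made by females, had 44.6, 30.0 and 19.4 normalized counts in sugar diet libraries and 117.2, 21747 and 2363 in control diet libraries, although the labels describe male flies. Because of Yp1, diet differences of the identity genes were also computed without control diet replicates 2 and 3. The fat body gene Lsp2 varied within each diet too. It had 10702, 49.7 and 38.7 normalized counts in sugar diet libraries and 10962, 10070 and 84.7 in control diet libraries. Control diet replicate 1, the control library that was kept, was thus high in Lsp2, and it had the highest midgut sum of the control diet libraries (652.3).

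**Figure D1:**
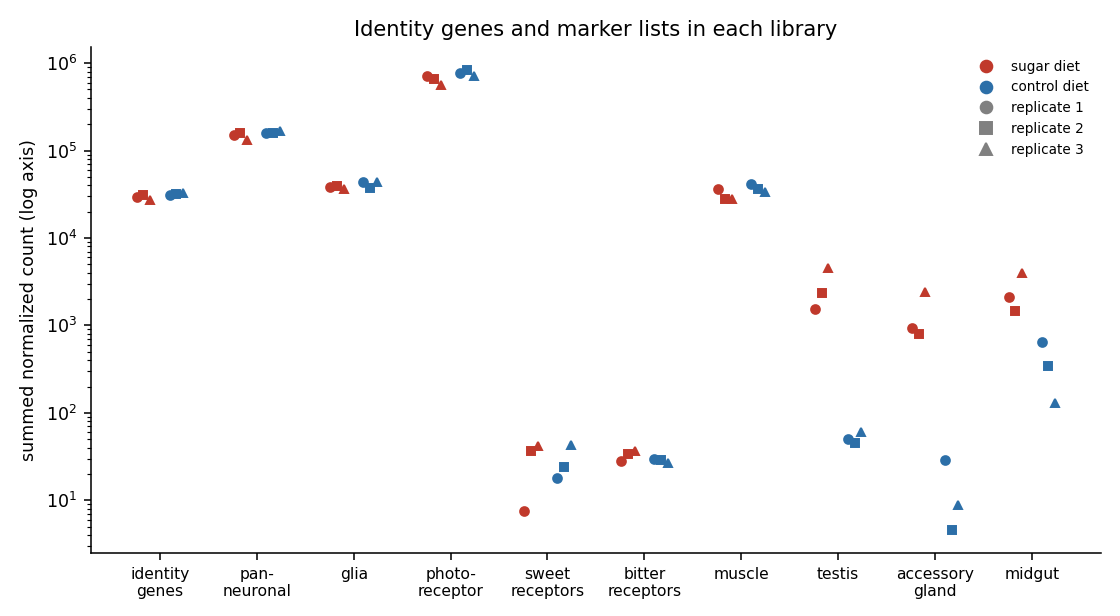
Summed normalized counts (log axis) of the 9 counted identity genes and of lists of marker genes in each library, sugar diet left of control diet. The identity gene and pan-neuronal sums of all 3 sugar diet libraries lay below those of all 3 control diet libraries, by a gap that is small on this axis. The testis and accessory gland sums of all 3 sugar diet libraries lay far above those of all 3 control diet libraries.

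The identity genes of all transmitter classes were detected well above the floor in every library, with raw counts between 246 and 14756. Levels of different genes were compared as normalized counts per kilobase of exon (per kb), since long transcripts collect more reads. VGlut had the highest mean level, 1841 ± 140 per kb on the sugar diet and 2084 ± 70.5 per kb on the control diet (SD, 3 libraries each). Gad1 followed with 1507 ± 109 per kb on the sugar diet and 1629 ± 177 on the control diet, and then Vmat with 881.3 ± 69.8 and 941.8 ± 62.7. These 3 genes lay at the 96.8, 95.9 and 92.9 percentiles of genes averaging at least 1 normalized count over the 6 libraries. The order of mean levels was the same on both diets, namely VGlut, Gad1, Vmat, ple, ChAT, VGAT, Hdc, DAT and SerT.

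Not every step in this order exceeded the spread between libraries. DAT and SerT overlapped on both diets, with DAT above SerT in 2 of 3 sugar diet libraries and in 3 of 3 control diet libraries. ChAT and VGAT overlapped across the sugar diet libraries (345.5 to 392.6 per kb for ChAT and 288.0 to 353.1 for VGAT) and were apart on the control diet (379.4 to 388.5 and 316.4 to 355.6). The other neighbours did not overlap on either diet. The marker of glutamatergic neurons thus stood 5.36, 4.90 and 4.86 times above ChAT per kb in sugar diet libraries, and 5.32, 5.43 and 5.55 times in control diet libraries. ChAT, which marks cholinergic neurons such as the gustatory neurons of the label, had a mean level below those of VGlut, Gad1, Vmat and ple. ChT, listed apart from the identity genes as a choline transporter and named here after its values were seen, stood at 537.5 per kb over the 6 libraries, above ChAT. Of the 4011 exon bases of ChAT, 606 are shared with VAChT on the same strand in the annotation used here. Whether reads there were counted for ChAT is not known, since VAChT was not analysed. With all counts divided by the unshared bases, ChAT would stand at 441.2 per kb over the 6 libraries, against 374.5 with all its exon bases.

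**Figure D2:**
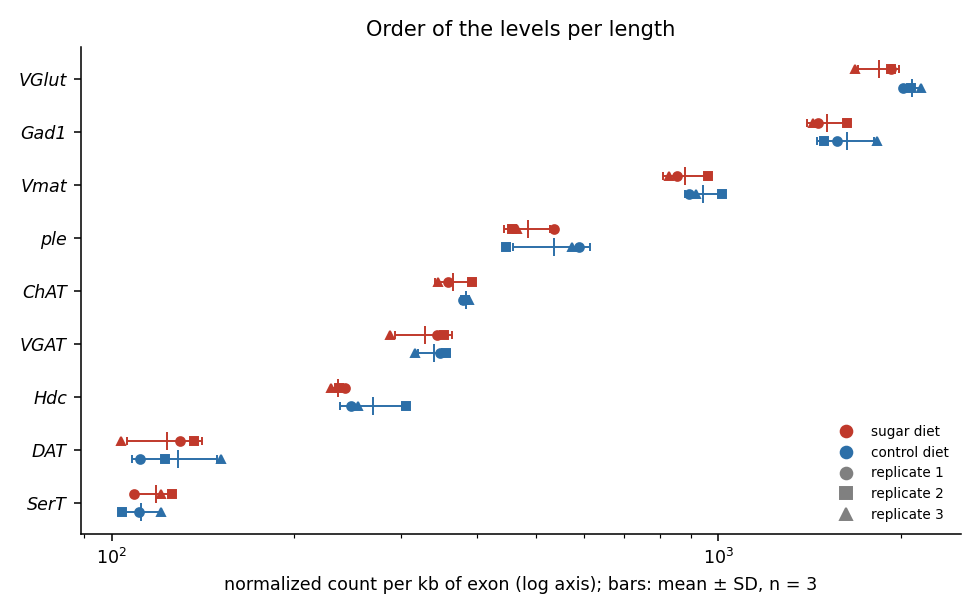
Normalized counts per kb of exon (log axis) of each identity gene in order of mean level, with 3 sugar diet libraries above 3 control diet libraries for each gene. Vertical ticks and bars are means ± SD (n = 3); DAT and SerT overlap on both diets, and VGlut leads on both.

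Whether the sugar diet changed these levels in Pcl mutants was asked with the DESeq2 Wald test over all genes. None of the 9 counted identity genes differed between diets at q under 0.1, against 14.5% of the 14254 genes tested (1990 higher and 77 lower on the sugar diet). At an unadjusted p under 0.05 the count was also 0 of 9, against 2628 of the 14254 genes tested. Among the 6273 tested genes averaging 200 or more normalized counts, 476 passed that threshold, so 0 of 9 is near the share of abundant genes. The quasi-likelihood test of edgeR gave 0 identity genes at either threshold. The 0 at the unadjusted threshold depended on the fit. VGlut passed it in DESeq2 with unstranded counts and with only genes of at least 10 counts in 3 libraries. It also passed without sugar diet replicate 1 or 2, and in no other alternative fit. Of the fits without 1 library, ple passed it only without control diet replicate 2. All 9 passed the practical equivalence test, which takes a gene as unchanged when a shift past 1.5-fold, up or down, can be rejected, against 40.6% of 16134 genes fitted. That comparison owes much to depth: among genes averaging 200 or more normalized counts, a minimum that every counted identity gene exceeds and that was chosen after their values were seen, 90.5% passed the equivalence test and 3.55% differed between diets. The identity genes thus did as most abundant genes did. The 95% intervals of their log2 fold changes, sugar diet over control diet, ran from -0.43 at the lowest to 0.37 at the highest. In a bulk sample, fewer cells of one transmitter class and less mRNA in each cell cannot be told apart, and this holds for every value given here.

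**Figure D3:**
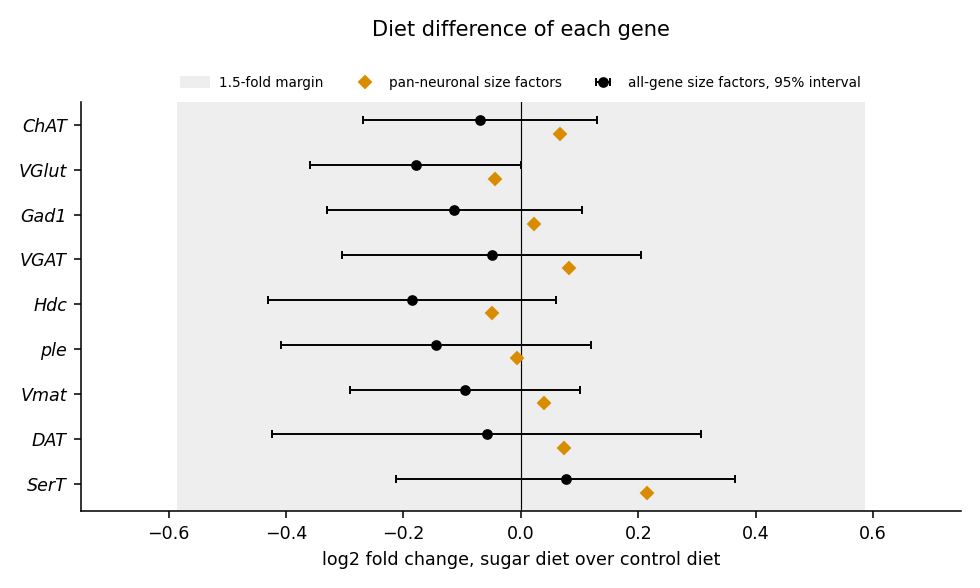
Log2 fold change of each identity gene, sugar diet over control diet, with 95% intervals (black) and the values obtained when libraries were scaled on pan-neuronal genes (orange). The shaded band is the 1.5-fold margin, and all 9 intervals lie inside it.

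ChAT (FBgn0000303, dm6 chr3R:18705501-18732344, plus strand) encodes choline acetyltransferase, the enzyme that makes acetylcholine. It had 1438, 1575 and 1386 normalized counts in sugar diet libraries, against 1522, 1535 and 1558 in control diet libraries. The control diet libraries lay close together and within the range of the sugar diet libraries. ChAT had a log2 fold change of -0.07 ± 0.10 (SE), with q = 0.891 in DESeq2.

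VGlut (FBgn0031424, chr2L:2400295-2410662, plus strand) encodes the transporter that fills vesicles with glutamate. It had 10986, 10986 and 9599 normalized counts in sugar diet libraries, against 11527, 11883 and 12331 in control diet libraries. All 3 sugar diet libraries were below all 3 control diet libraries. A separation of this kind, in either direction, was seen for 2 of the 9 identity genes, VGlut and Hdc, and for 26.6% of all genes tested. The log2 fold change of VGlut was -0.18 ± 0.09, with a 95% interval of -0.36 to 7.14e-04 (q = 0.274, DESeq2). Scaled on pan-neuronal genes it was -0.04. The sum of 7 pan-neuronal markers had the same separation, with 133632 to 158739 normalized counts in sugar diet libraries and 159967 to 166950 in control diet libraries, and none of the 7 passed q under 0.1. The part of these markers in the VGlut values was not tested, and that scaling cannot test it, as it takes out any shift the markers share.

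Gad1 (FBgn0004516, chr3L:4074077-4088744, minus strand) encodes glutamic acid decarboxylase, which makes GABA from glutamate. Its normalized counts were 5373, 6011 and 5270 in sugar diet libraries and 5784, 5489 and 6735 in control diet libraries, and the groups overlapped. Gad1 differed by -0.11 ± 0.11 on the log2 scale, with q = 0.768 in DESeq2. VGAT (FBgn0033911, chr2R:14198478-14201249, minus strand), the vesicular transporter of GABA, had 927.8, 953.4 and 777.7 normalized counts in sugar diet libraries and 939.0, 960.2 and 854.4 in control diet libraries. Replicate 3 was the lowest of its group on both diets. VGAT had a log2 fold change of -0.05 ± 0.13 (q = 0.960, DESeq2), and without sugar diet replicate 3 it was 0.04.

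Hdc (FBgn0005619, chr2R:10237988-10246077, plus strand) encodes histidine decarboxylase, which makes the histamine that photoreceptors release. It had 925.9, 905.6 and 878.5 normalized counts in sugar diet libraries, against 949.1, 1169 and 972.5 in control diet libraries. The groups did not overlap, by a gap that was small beside the spread of the control diet libraries. Hdc had the most negative log2 fold change of the 9 genes, -0.19 ± 0.13, with q = 0.529 in DESeq2. Without control diet replicate 2, its highest library, this was -0.09. Over the 12 photoreceptor markers the median was -0.20, and 10 were below 0, against 4163 of 6273 tested genes averaging 200 or more counts. At q under 0.1, 1 of them, chp, was lower. In either direction, 14.5% of all genes tested and 3.55% of those averaging 200 or more counts passed. At an unadjusted p under 0.05 in DESeq2, 6 of the 12 passed, against 476 of those 6273 genes. The part of the photoreceptor markers in the Hdc values was not tested. Per kb, ninaE stood at 265574 over the 6 libraries, while Hdc averaged 236.1 ± 6.22 on the sugar diet and 269.3 ± 31.6 on the control diet.

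The 4 monoamine genes covered both strong and weak signals. Vmat (FBgn0260964, chr2R:13513132-13534251, minus strand), the transporter that loads dopamine, serotonin, octopamine and histamine into vesicles, had 6937, 7815 and 6753 normalized counts in sugar diet libraries and 7273, 8238 and 7470 in control diet libraries. Replicate 2 was the highest of its group on both diets and the groups overlapped. The log2 fold change of Vmat was -0.10 ± 0.10 (q = 0.796, DESeq2). Its exons overlap those of CG13330 on the other strand over 2129 bases, 26.2% of the total. In the unstranded counts, where reads shared with CG13330 belong to neither gene, the level of Vmat was 677.3 per kb over the 6 libraries. That value still divides by all exon bases of Vmat, the shared bases included, so it understates the level.

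Tyrosine hydroxylase, the rate-limiting enzyme of dopamine synthesis, is encoded by ple (FBgn0005626, chr3L:6713356-6719525, minus strand). It had 2036, 1741 and 1772 normalized counts in sugar diet libraries and 2240, 1700 and 2185 in control diet libraries. The control diet group held both its highest and its lowest library. The log2 fold change of ple was -0.14 ± 0.13 (q = 0.747, DESeq2). Without control diet replicates 2 and 3 it was -0.30 (q = 0.182, DESeq2).

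The plasma membrane transporters DAT and SerT had the lowest levels. DAT (FBgn0034136, chr2R:16558567-16565238, minus strand), which returns dopamine to the neuron, had 393.2, 416.2 and 314.8 normalized counts in sugar diet libraries and 339.0, 372.0 and 459.7 in control diet libraries. Replicate 3 was the lowest sugar diet library and the highest control diet library. The log2 fold change of DAT was -0.06 ± 0.19 with a 95% interval of -0.42 to 0.31 (q = 0.971, DESeq2), the widest of the set, and its sign changed to 0.07 without control diet replicate 3 and to 0.06 without sugar diet replicate 3. SerT (FBgn0010414, chr2R:24404595-24411074, minus strand), the serotonin transporter, had 405.3, 467.8 and 448.4 normalized counts in sugar diet libraries and 414.0, 387.1 and 449.8 in control diet libraries. It was the only identity gene with a positive log2 fold change, 0.08 ± 0.15 (q = 0.933, DESeq2), and its groups overlapped.

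**Figure D4:**
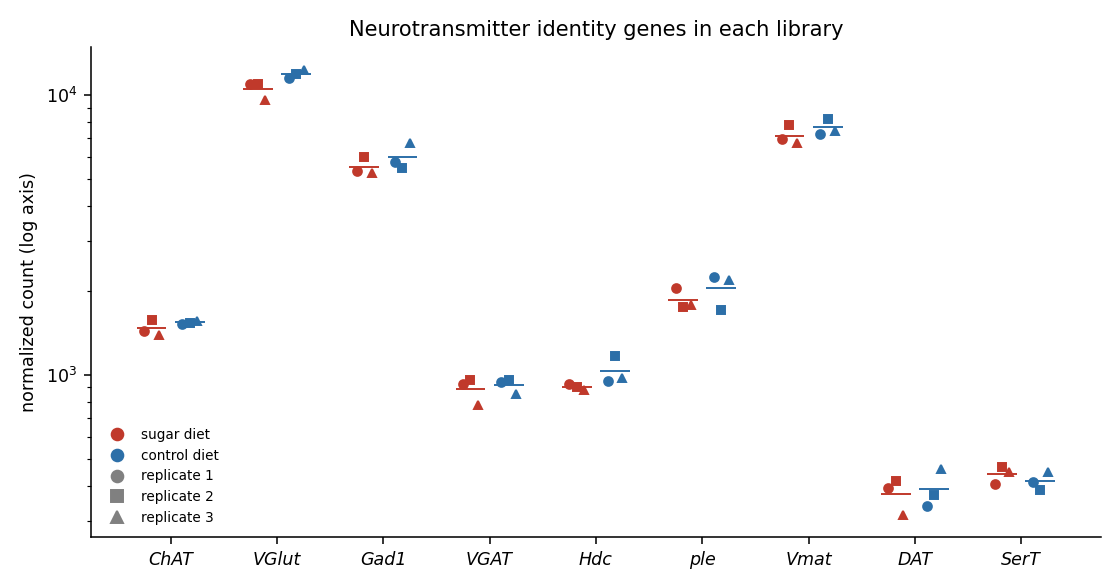
Normalized counts (log axis) of each identity gene in each library, sugar diet left of control diet, with a line at the mean of 3 libraries. The groups are apart for VGlut and Hdc and overlap for the other 7 genes.

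As a group, 8 of the 9 identity genes had log2 fold changes below 0, with a median of -0.10. Over all genes tested, 6763 of 14254 were below 0, with a median of 0.02. Among tested genes averaging 200 or more normalized counts, 4163 of 6273 were below 0, with a median of -0.05. The direction of the identity genes changed with the genes used for scaling. With size factors from the pan-neuronal markers, 3 of the 9 (VGlut, Hdc and ple) stayed below 0. These size factors moved the median log2 fold change of all genes fitted to 0.15, against 0.015 with the size factors of all genes. Of the 7 markers, 6 themselves had log2 fold changes below 0 in the main fit, with a median of -0.09. Scaling on them takes out any shift they share with the identity genes, so it cannot tell whether the direction came from the scaling. The summed normalized counts of the 9 genes were 27199 to 30871 in sugar diet libraries and 30986 to 33015 in control diet libraries, just without overlap. With control diet replicate 1 as the only control library, 0 of 9 genes differed and 9 of 9 passed the equivalence test. The log2 fold changes were then -0.08 for ChAT, -0.16 for VGlut, -0.09 for Gad1, -0.11 for VGAT, -0.10 for Hdc, -0.30 for ple, -0.05 for Vmat, 0.12 for DAT and 0.06 for SerT.

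**Figure D5:**
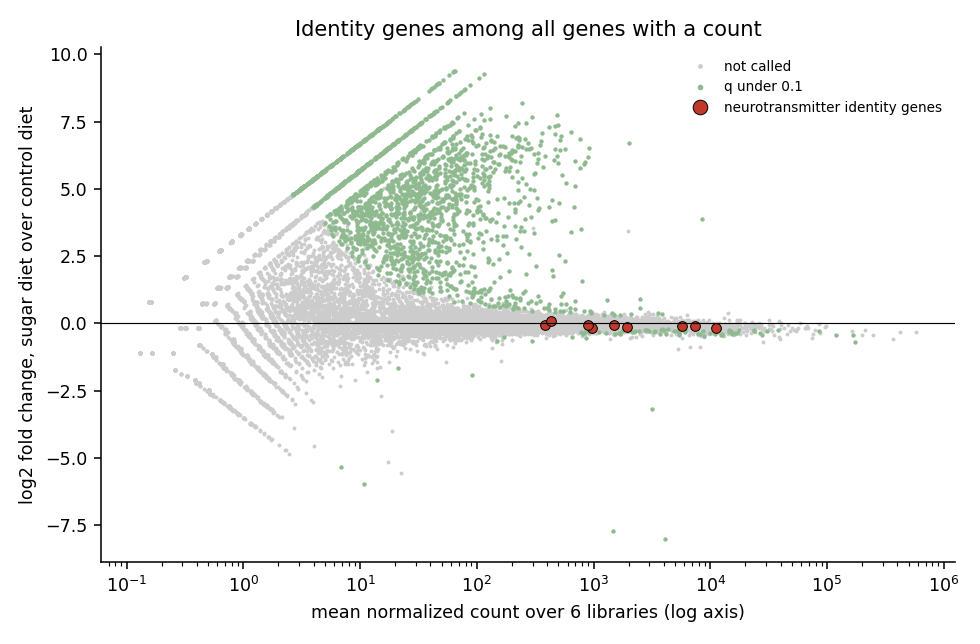
Log2 fold change, sugar diet over control diet, against mean normalized count over 6 libraries (log axis) for all genes with a count. The 9 identity genes (red) lie on the right, near 0, while most genes with q under 0.1 (green) have lower counts and lie above 0.

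A ratio between transmitter classes within a library needs no size factor. The log2 ratio of VGlut to ChAT per kb was 2.42, 2.29 and 2.28 in sugar diet libraries and 2.41, 2.44 and 2.47 in control diet libraries. Its mean was 2.33 ± 0.08 on the sugar diet and 2.44 ± 0.03 on the control diet (SD over 3 libraries). The difference of -0.11 had p = 0.2 in a two-sided exact permutation test, or 0.4 adjusted over the 2 ratios, where 3 against 3 libraries cannot give a p below 0.1. The log2 ratio of Gad1 to ChAT was 2.04 ± 0.02 on the sugar diet and 2.08 ± 0.14 on the control diet, a difference of -0.04 (exact p = 0.9), and its sign changed to 0.04 without control diet replicate 3. Against control diet replicate 1 alone, with no test, the differences were -0.08 for VGlut and -0.0061 for Gad1.

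The 24 other listed genes that make, move or break down the same transmitters gave 21 with counts, of which 0 were higher and 1 was lower on the sugar diet at q under 0.1, with 19 of 21 passing the equivalence test. Over all genes, 14.5% of those tested differed and 40.6% of those fitted passed the equivalence test. Over genes averaging 200 or more normalized counts, these shares were 3.55% and 90.5%. The counts of the 21 genes were near the shares of abundant genes, although Trhn, prt and Tdc2 among the 21 averaged below 200. The median log2 fold change of the 21 genes was -0.11. The gene that fell was Gat, the plasma membrane transporter that clears GABA from the synapse. It had 1653, 1588 and 1484 normalized counts in sugar diet libraries, against 1877, 1902 and 2043 in control diet libraries. The groups were apart, as they were for 26.6% of all genes tested. The log2 fold change of Gat was -0.30 ± 0.10 (q = 0.0219, DESeq2), and edgeR gave q = 0.042. Gat also passed the equivalence test (q = 0.00880), so its fall was measured as smaller than 1.5-fold. The call was lost with pan-neuronal size factors (-0.17, q = 0.413), without sugar diet replicate 3 (-0.26, q = 0.144) and with control diet replicate 1 alone (-0.28, q = 0.148). Of the 8 glial markers listed, 1 was also lower at q under 0.1, the astrocyte gene alrm (-0.41, q = 0.0264, DESeq2). The summed glial markers were 35870 to 39400 in sugar diet libraries and 36840 to 43665 in control diet libraries. The part of the glial markers in the Gat values was not tested.

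Within each transmitter class the other genes were read by their most abundant member per kb. Ace, the acetylcholinesterase that ends cholinergic signalling, stood at 1349 per kb over the 6 libraries, with a log2 fold change of -0.08 ± 0.09. Gs2, the glutamine synthetase with which glia turn glutamate into glutamine, stood at 7500 per kb and changed by -0.07 ± 0.12. Gabat, which breaks GABA down, stood at 893.7 per kb with -0.06 ± 0.09. For histamine, t (tan), the photoreceptor hydrolase that frees histamine from carcinine, stood at 1185 per kb with -0.12 ± 0.16. Hn, the phenylalanine hydroxylase that supplies tyrosine, stood at 1304 per kb with -0.02 ± 0.12. None of these 5 genes passed q under 0.1 in DESeq2, and all 5 passed the equivalence test.

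Chosen after its values were seen, Ddc, the dopa decarboxylase that completes dopamine and serotonin synthesis, had 2198, 2733 and 2565 normalized counts in sugar diet libraries, against 2122, 2122 and 2136 in control diet libraries. Its groups were apart, with a log2 fold change of 0.23 ± 0.11 that did not pass the test (q = 0.207, DESeq2). Of the 21 genes, Gat and Tdc1 (0.10 ± 0.16, q = 0.916, DESeq2) were the others with groups apart, against 26.6% of all genes tested. The 2 genes that passed neither test, also chosen after their values were seen, were Balat, a transporter of beta-alanine in the histamine cycle (-0.29 ± 0.18), and Tdc2, the tyrosine decarboxylase of octopamine neurons (-0.17 ± 0.34), which had the lowest counts of the list.

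Among 9020 genes averaging 50 or more normalized counts, the 5 whose log2 values followed VGlut most closely over the 6 libraries were hid, nSyb, FBgn0259234, SCAP and hzg, with Pearson's r of 0.994, 0.992, 0.985, 0.985 and 0.985. hid is a cell death gene, and nSyb encodes the neuronal synaptobrevin of synaptic vesicles. These 6 points share their libraries and size factors, and the values are a description. Of the other identity genes, ChAT followed VGlut most closely (r = 0.80) and SerT least (r = -0.31), with the remaining 6 between 0.43 and 0.67.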

How the data were processed

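RNA was measured in 6 libraries, 3 per diet, each from 300 pooled heads. The deposited tables hold raw counts of reads per gene, which the authors made from ribosomal-RNA-depleted libraries by discarding reads with quality below 30 and aligning with STAR to dm6. The methods name HTSeq for counting, while the tables have the column layout of STAR, and the sense column was used. Libraries of the same diet differed beyond sampling noise (chi-square per degree of freedom 19.4 to 56.4) and were kept as separate replicates. Reads in several places or genes are not counted.

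Diets were compared with DESeq2 1.42.0 in R 4.3.3 (Wald test, two-sided, no block, Benjamini-Hochberg q under 0.1), as in the study, on all genes with at least 1 count. Practical equivalence used a 1.5-fold margin and a normal test on the DESeq2 log2 fold change and its standard error. edgeR 4.0.16 was an alternative. Per kb levels are DESeq2-normalized counts over the union of exons in Ensembl release 115. Named genes are the 10 listed genes, pathway genes with q under 0.1 or the highest level of their class, Pcl, leading markers and the 5 genes closest to VGlut. Other markers were named after their values were seen, namely alrm and chp for their q under 0.1, and Yp1 and Lsp2 for their spread between libraries. The members and lists were chosen with earlier results of these data known. Coordinates are in dm6. Alternatives are in the closing section.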

Additional observations from a re-analysis of the deposited data

Results flagged for a closer look

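Reads on the strand opposite to Vmat differed between diets, a signal in counts that the comparisons of identity genes do not use. They numbered 57, 114 and 121 in sugar diet libraries and 28, 37 and 38 in control diet libraries. The log2 fold change, sugar diet over control diet, was 1.47 ± 0.40 (q = 0.0629, DESeq2), and 54 of 9619 genes passed q under 0.1 on that strand. On the sense strand, CG13330, whose exons overlap those of Vmat, had 23.2, 81.6 and 101.7 normalized counts in sugar diet libraries and 8.59, 15.1 and 14.8 in control diet libraries (2.44 ± 0.60, q = 5.43e-04, DESeq2). In raw counts these were 25, 87 and 105 against 11, 10 and 15. Reads of CG13330 over the shared bases also fall in the opposite-strand counts of Vmat, so these results are not independent. The opposite-strand counts of the other 8 counted identity genes did not pass the test.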

How the results depend on the processing

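Over 14 alternative fits, 0 of the 9 identity genes differed between diets at q under 0.1 in any (lowest q 0.136, for VGlut without sugar diet replicate 1), and in the 12 that allow an equivalence test 9 of 9 passed (highest q 0.0782). Control diet replicate 1 alone was chosen after seeing the data, as were all alternatives for Gat, and there the spread comes from the sugar diet libraries. Signs turned with pan-neuronal size factors for ChAT (0.066), Gad1 (0.0229), VGAT (0.0818), Vmat (0.0393) and DAT (0.0731), where the scaling shifted all genes, and with control diet replicate 1 alone for DAT (0.119). Leaving out 1 library each gave -0.157 to 0.0674 for DAT, -0.111 to 0.0397 for VGAT and -0.0988 to 0.0379 for the difference in the log2 ratio of Gad1 to ChAT (the cause was not tested). Without a change of sign, it also moved ChAT (-0.123 to -0.0269), Gad1 (-0.177 to -0.0345), Vmat (-0.162 to -0.0443), ple (-0.262 to -0.0755), Hdc (-0.246 to -0.0928), VGlut (-0.211 to -0.114) and SerT (0.0252 to 0.134). Per kb levels moved to 441.2 for ChAT over unshared exon bases, and to 1718 for Gad1 and 1012 for Vmat over the longest transcript. In unstranded counts Vmat moved to 677.3, where the shared bases lose their reads but stay in the length. Same-numbered libraries did not deviate together over all genes (correlations 0.03, -0.04 and -0.10). This gave no sign of pairing, but such a check cannot exclude a small effect shared by same-numbered libraries. With a replicate block 0 identity genes differed, 9 passed the equivalence test and 1842 genes differed, against 2067 without it. Leaving out 1 library gave 1443 to 2532 differing genes. Standard errors of the log2 fold changes ran from 0.092 for VGlut to 0.187 for DAT, which had the lowest raw count, and the part of depth in them was not separated from that of replicate spread.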
